A study of Mus musculus with 8 samples.

Results

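Expression of the receptors that set gallbladder contraction and relaxation was described in gallbladders of obese, leptin-deficient mice given leptin or saline. The receptor set had 9 genes: the cholecystokinin receptors Cckar and Cckbr, the muscarinic acetylcholine receptors Chrm2 and Chrm3, the vasoactive intestinal peptide (VIP) receptors Vipr1 and Vipr2, the tachykinin receptor Tacr2, and Gucy1a1 and Gucy1b1, the subunits of soluble guanylate cyclase, the receptor for nitric oxide. They were chosen by name as receptors of gallbladder motility, with earlier results of these data known. Probe sets annotated with a single gene symbol measured 8 of the 9 genes through 13 probe sets, out of 18193 genes and 45037 probe sets in all. No probe set carried the name Chrm2 in the annotation used, so Chrm2 is not analysed here.

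All mice were females homozygous for the ob mutation of the leptin gene (strain B6.V-Lep ob), and therefore both treatments lacked functional leptin of their own. The leptin group received recombinant mouse leptin at 5 µg per g of body weight, by a daily injection into the abdomen over 4 weeks. The saline group was injected with saline on the same schedule. Animals were 12 weeks old and fasted at tissue collection. The RNA of 3 gallbladders was combined into each pool, which gave 4 leptin pools (numbered 5 to 8) and 4 saline pools (numbered 1 to 4) from separate mice. Each pool was read on 1 Affymetrix Mouse Genome 430 2.0 array as a MAS 5.0 signal per probe set, a brightness on a linear scale. Differences were tested on the log2(signal + 8.2) scale, which understates changes of dim genes, for probe sets of at least median brightness, and are called where the adjusted p lay under 0.05.

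As background, a fatty meal releases the hormone cholecystokinin from the intestine, and the gallbladder muscle contracts when CCK1, the receptor encoded by Cckar, couples through Gq proteins to calcium. Acetylcholine from nerves adds to contraction through muscarinic receptors. Between meals the wall relaxes and the organ fills, helped by VIP, whose receptors raise cAMP, and by nitric oxide, whose receptor raises cGMP.

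The labelled tissue, gallbladder, was checked against marker genes. All 12 smooth muscle markers and all 9 gallbladder epithelium markers were measured, and none of either list lay under background in every pool. Of all 18193 measured genes only 1524 did, so this alone does not identify the tissue. Transcripts of neighbouring organs were present as well. The summed signal of 8 hepatocyte genes lay between 98184 and 116933 in leptin pools and between 76253 and 121503 in saline pools. That of 4 acinar cell genes of the pancreas lay between 2871 and 3829 in leptin pools and between 2978 and 4885 in saline pools. Leukocyte markers differed between treatments: 6 of 6 tested rose, and the sum over 8 measured was 7115 to 7567 in leptin pools and 2010 to 2812 in saline pools. Epithelial markers had 3 of 8 tested lower, with a sum over 9 of 28046 to 31626 in leptin pools and 34986 to 43569 in saline pools. Actin probe sets gave a ratio of 3' over 5' signal, a measure of RNA breakdown, of 1.89 ± 0.207 in leptin pools and 1.60 ± 0.0882 in saline pools (SD, n = 4 each; two-sided exact permutation p = 0.0571, adjusted p = 0.0762 over 4 array measures). The same ratio from GAPDH probe sets was 0.818 ± 0.0248 in leptin pools and 0.813 ± 0.0409 in saline pools (exact permutation p = 0.857, adjusted p = 0.857). The share of probe sets above background was 69.4% ± 1.10 in leptin pools and 64.9% ± 1.49 in saline pools (exact permutation p = 0.0286, adjusted p = 0.0571). The median signal of an array was 98.9 ± 5.74 in leptin pools and 81.8 ± 4.18 in saline pools, without overlap (exact permutation p = 0.0286, adjusted p = 0.0571).

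Cckar rose with leptin and was the gene of the set that passed the test by its brightest probe set. Its probe set 1421195_at read 1219.8, 1160.5, 1243.3 and 1161.4 in leptin pools 5 to 8, against 593.2, 653.6, 587.1 and 665.6 in saline pools 1 to 4. The lowest leptin pool lay far above the highest saline pool, and the pools of each treatment lay close together. The means were 1196 ± 41.9 with leptin and 625 ± 40.5 with saline (SD, n = 4 each). The log2 fold change, leptin minus saline, was 0.93 ± 0.11 (SE), which is 1.90-fold with a 95% interval of 1.62 to 2.23 (limma, Benjamini-Hochberg adjusted p = 0.000219 over 22519 probe sets). Of 11719 tested genes, 8.27% were called in either direction and 4.29% were called higher, and by p-value Cckar ranked 52nd of them. By size of rise it ranked 261st. With each array centred on its own median the genes called split into 255 higher and 2126 lower, against 503 and 466 in the fit used here, and Cckar rose by 0.68 (limma adjusted p = 0.00345).

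**Figure D1:**
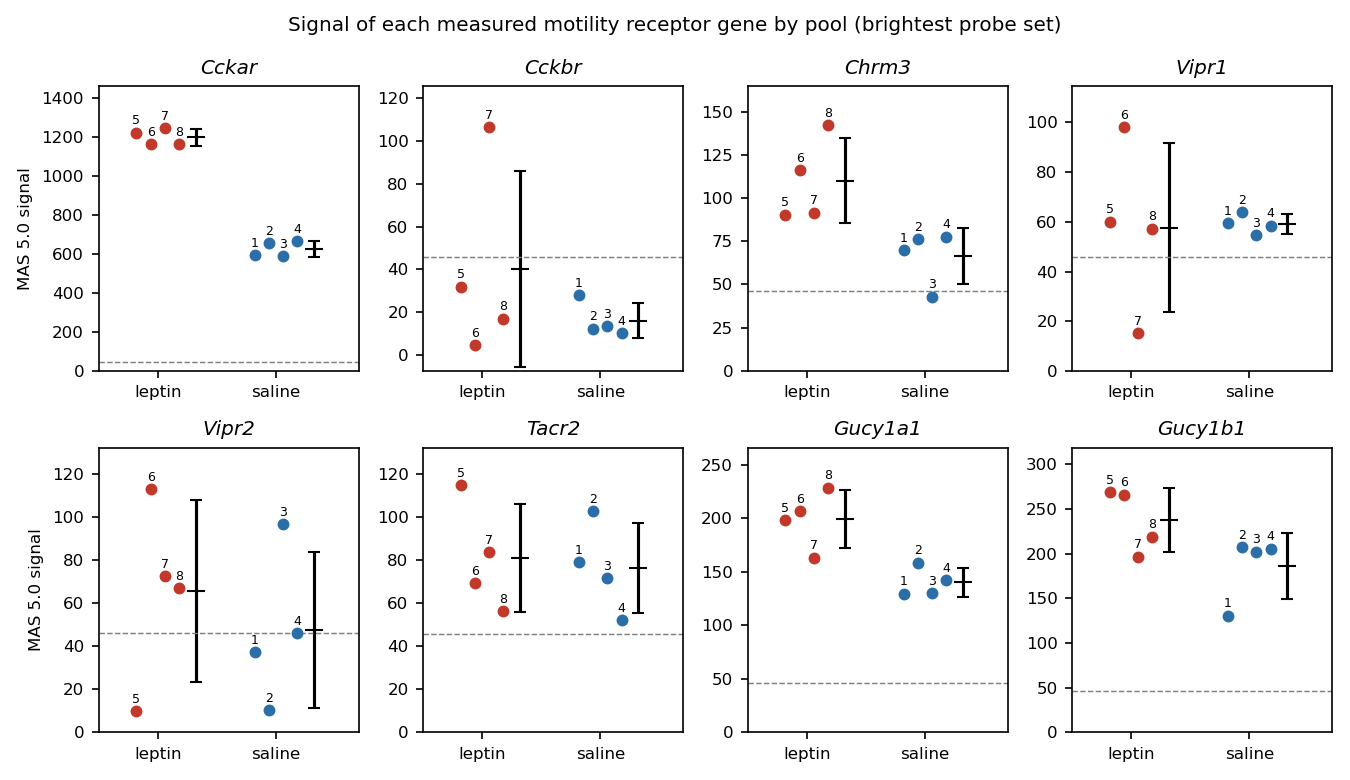
MAS 5.0 signal (linear axis) of the brightest probe set of each of the 8 measured genes, by pool, leptin in red and saline in blue, with pool numbers above the points, the mean ± SD as a bar beside them (n = 4 each) and background at 46.0 as a dashed line. The 4 leptin pools lay above the 4 saline pools for Cckar, Chrm3 and Gucy1a1 and overlapped with them for the other 5 genes.

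In RNA of whole gallbladders, fewer cells of a type and less RNA per cell cannot be told apart, so Cckar was set beside smooth muscle markers in each pool. Of the 12 smooth muscle markers, 1 was higher, 1 was lower and 10 did not pass, with a median log2 fold change of -0.13, where the median of all tested genes was 0.020. Smoothelin (Smtn), a protein of contractile smooth muscle, rose by 0.65 ± 0.14 and enteric gamma-actin (Actg2) fell by 0.58 ± 0.14 (SE; limma adjusted p = 0.0149 and 0.0289). The call of Actg2 was lost in 11 of 21 alternative fits (adjusted p from 0.00159 to 0.399). The log2 fold change was -0.039 ± 0.099 for the smooth muscle actin Acta2 and -0.098 ± 0.15 for the myosin heavy chain Myh11, neither called (limma adjusted p = 0.85 and 0.726). The 2 tested probe sets of Acta2 were at -0.95 and -0.039, and the first of them was called lower. Mylk, the kinase of the myosin light chain, was at -0.21 and was not called (limma adjusted p = 0.284), but with median centring it was at -0.46 and was called lower (adjusted p = 0.0151). The call of Smtn, a gene named after its values were seen, was lost with median centring (0.40) and with the actin covariate (0.72), at adjusted p = 0.0789 and 0.0883. The summed marker signal was 39530 to 50016 in leptin pools and 40885 to 55360 in saline pools.

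A smooth muscle score, the mean over the 12 markers of the log2 value minus its mean over all 8 pools, was -0.12, -0.097, 0.18 and -0.23 in leptin pools and -0.22, 0.25, 0.16 and 0.064 in saline pools. The treatments overlapped in this score (difference -0.13, two-sided exact permutation p = 0.4). With the score subtracted, the log2 value of Cckar was 10.38, 10.29, 10.11 and 10.42 in leptin pools, against 9.45, 9.12, 9.06 and 9.33 in saline pools. The pools again did not overlap, and the difference was 1.06 (exact permutation p = 0.0286, the smallest that 70 assignments allow; adjusted p = 0.0762 over the 4 genes compared this way). Without the score subtracted, the log2 fold change of Cckar was 0.93. The part of smooth muscle content in the change of Cckar was not tested.

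**Figure D2:**
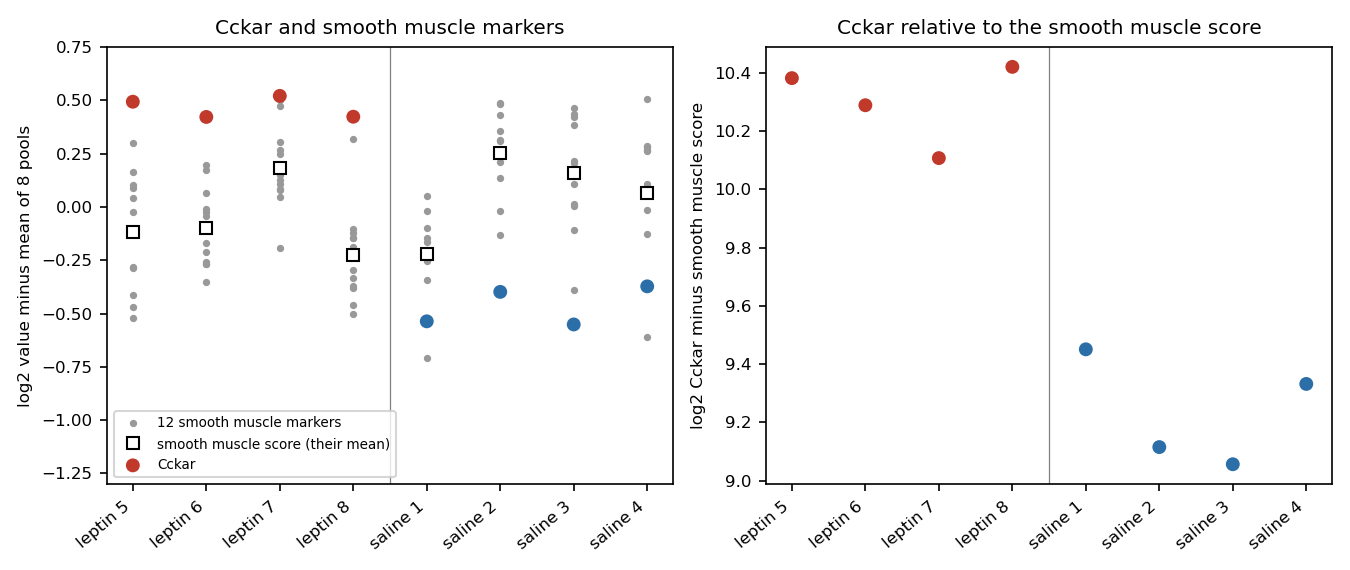
Left, log2 value minus the mean of the 8 pools (y axis) by pool for Cckar (red, leptin; blue, saline), the 12 smooth muscle markers (grey) and their mean, the smooth muscle score (open squares). Right, log2 Cckar minus that score, which lay between 10.11 and 10.42 in leptin pools and between 9.06 and 9.45 in saline pools.

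In mice Cckar is also known from acinar cells of the pancreas and from sensory neurons of the vagus nerve. None of the 3 tested acinar genes was called. Of these, chymotrypsinogen (Ctrb1, named after its values were seen) read 1899.8, 2441.2, 2596.9 and 2021.7 in leptin pools and 3592.4, 2211, 1827.1 and 2694.1 in saline pools. None of the 3 tested neuronal markers was called, and 1 of 7 measured lay under background in every pool. Among the markers above, leukocyte markers were higher with leptin, as Cckar was, and the summed epithelial markers were lower. Their part in the change of Cckar was not tested. With the actin ratio as a covariate Cckar rose by 0.94 (limma adjusted p = 0.00868), as much as without it.

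Among 11718 other tested genes, those whose pattern over the 8 pools was most like that of Cckar were Ccdc157, Oxct1 and Armh4. The mean absolute difference from Cckar, between log2 values centred on the 8 pools, was 0.0515, 0.0668 and 0.0802, where the median gene was at 0.471. Oxct1, which encodes a ketone body-using enzyme of mitochondria, read 1210.8, 1233.5, 1244.9 and 1231.6 in leptin pools, against 542.9, 599.8, 629.3 and 664.1 in saline pools. For each of the 3, every leptin pool lay above every saline pool, which follows from how close they are to Cckar.

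Cckbr encodes CCK2, the receptor known for gastric acid secretion and for roles in brain, and it stayed near background here. Its probe set 1460663_at read 31.9, 4.7, 106.7 and 17.0 in leptin pools, against 28.1, 12.4, 13.6 and 10.2 in saline pools. Only leptin 7 exceeded the background signal of 46.0, the level under which 95% of the readings of absent bacterial control sequences lay. The other probe set, 1454770_at, lay under it in all 8 pools, at 9.1 to 31.9 with leptin and 13.0 to 19.7 with saline. Neither was bright enough to be tested, and no fold is given between levels of this kind.

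Chrm3 encodes the M3 receptor, which couples to Gq and carries much of the contraction that acetylcholine evokes in smooth muscle. It read 90.4, 116.2, 91.5 and 142.2 in leptin pools, against 69.8, 76.3, 42.9 and 77.7 in saline pools, and saline 3 lay under background. The treatments did not overlap, but the spread was wide for the size of the difference. The log2 fold change was 0.67 ± 0.28 (SE), with a 95% interval of 1.05-fold to 2.40-fold, and did not pass (limma adjusted p = 0.166). Its mean brightness stood at the 50.3rd percentile of all probe sets, just inside the filter at the median, while that of Tacr2 stood at the 47.8th, just outside it.

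Tacr2 encodes the neurokinin NK2 receptor, through which tachykinins released by nerves contract gut muscle. Its pools overlapped, at 114.9, 69.3, 83.8 and 56.3 with leptin and 79.3, 102.8, 71.8 and 52.2 with saline. All lay above background. Under a stricter bound of 64.9, the 99th percentile of the control readings, lay 1 leptin and 1 saline pool. A fit with no filter on brightness gave a log2 fold change of 0.068 ± 0.33 (SE), with a 95% interval of -0.64 to 0.77 (limma adjusted p = 0.945).

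The receptors for VIP, VPAC1 (Vipr1) and VPAC2 (Vipr2), couple to the production of cAMP and are known to relax smooth muscle. The brighter Vipr1 probe set, 1455555_at, read 60.1, 98.2, 15.1 and 57.2 in leptin pools, against 59.5, 64.0, 54.5 and 58.5 in saline pools. Saline pools lay close together, and leptin pools fell on both sides of them, with leptin 7 under background. Under the stricter bound of 64.9 lay 3 leptin and all 4 saline pools. The fit with no filter gave -0.22 ± 0.45 (SE), with a 95% interval of -1.20 to 0.75 on the log2 scale (limma adjusted p = 0.856). The second, 1423004_at, exceeded background only in leptin 8, at 49.3, and lay at 11.9 to 36.9 in the other leptin pools and at 3.5 to 14.8 in saline pools. With all saline pools and the leptin mean under background, no fold is given for it either.

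Vipr2 read 9.9, 112.8, 72.4 and 67.0 in leptin pools, against 37.1, 10.2, 96.4 and 46.0 in saline pools. The leptin pools spanned the whole range of the saline pools, and 1 leptin and 3 saline pools lay under background. With no filter the log2 fold change was 0.37 ± 0.64 (SE), and its 95% interval ran from -1.01 to 1.76 (limma adjusted p = 0.822). Changes of these VIP receptors smaller than such intervals were not detectable with 4 pools a treatment at this brightness.

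**Figure D3:**
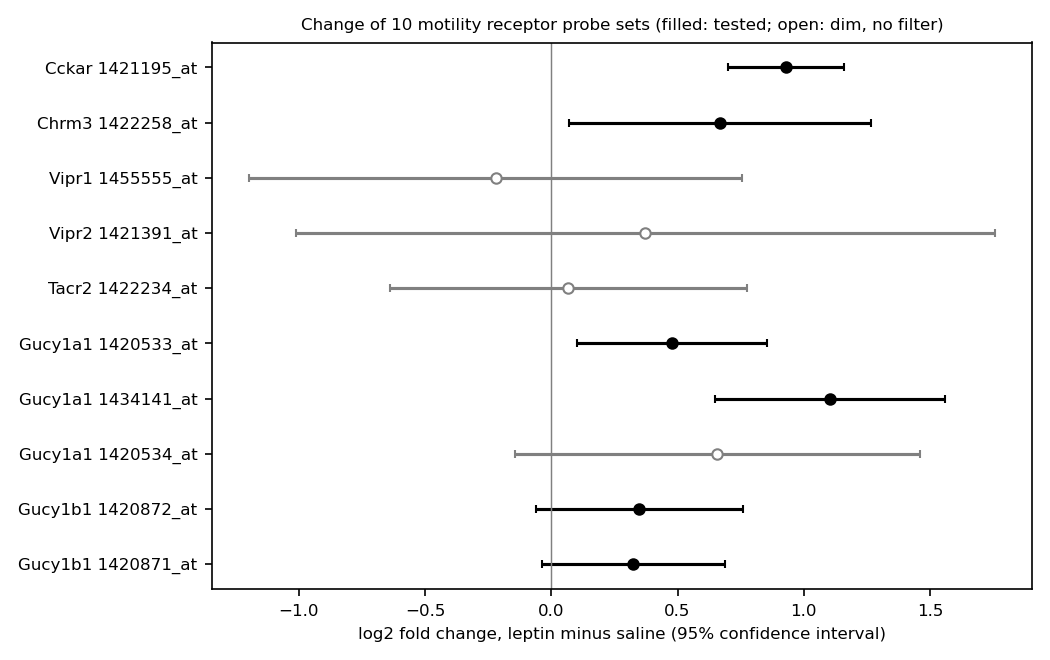
Log2 fold change, leptin minus saline, with its 95% confidence interval (x axis) for 10 of the 13 probe sets (both of Cckbr and the dimmer of Vipr1 are left out, as their levels allow no fold), filled where the probe set was bright enough to be tested and open where the value comes from the fit with no filter. Cckar (0.93) and the Gucy1a1 probe set 1434141_at (1.10) were the ones called. The intervals of Vipr1, Vipr2, Tacr2, the Gucy1a1 probe set 1420534_at and both Gucy1b1 probe sets span 0.

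Soluble guanylate cyclase works as a dimer of an alpha and a beta subunit, so Gucy1a1 and Gucy1b1 are described together. They are neighbours on mouse chromosome 3, where both are read from the minus strand. In the fit with no filter, 12 of 13 receptor probe sets had a log2 fold change above 0, including all of both genes. Several of the 12 read the same gene. Both of Cckbr and the dimmer of Vipr1 are among them, too near background for a fold to be given. By brightest probe set, 58.1% of all 18193 genes had a log2 fold change above 0. The stretches around the starts of both genes are shown. They are RefSeq sequences of build GRCm38.p6, each from 250 bases before to 50 bases after an annotated start, 5′ to 3′ on the gene's strand, with matches to GGGCGG (the GC box) and to CCAAT on either strand in capitals. The Gucy1a1 window is chr3:82145601-82145900 and the Gucy1b1 window is chr3:82074662-82074961.
Gucy1a1: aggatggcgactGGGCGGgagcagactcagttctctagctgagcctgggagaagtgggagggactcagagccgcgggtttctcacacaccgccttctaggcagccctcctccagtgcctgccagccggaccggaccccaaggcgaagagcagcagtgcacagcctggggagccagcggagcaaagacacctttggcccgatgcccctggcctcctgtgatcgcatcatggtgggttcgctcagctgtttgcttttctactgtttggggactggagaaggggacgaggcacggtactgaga
Gucy1b1: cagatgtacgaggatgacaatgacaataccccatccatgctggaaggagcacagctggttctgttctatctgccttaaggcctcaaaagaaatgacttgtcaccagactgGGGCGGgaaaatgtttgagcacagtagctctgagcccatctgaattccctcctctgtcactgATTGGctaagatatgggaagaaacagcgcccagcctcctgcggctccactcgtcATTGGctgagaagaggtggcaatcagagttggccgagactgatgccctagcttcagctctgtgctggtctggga

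Each window held 1 GC box, a motif found in 35.7% of the 32851 windows of this length. Gucy1b1 also held 2 CCAAT matches, both as ATTGG on the strand shown, and Gucy1a1 held none, where 37.4% of windows had at least 1. A second annotated start of Gucy1a1, at chr3:82145024-82145323, matched neither. TTCNNNGAA, a pattern of STAT factors, which leptin receptors activate, was in none of the 9 windows listed for 8 of the receptor genes and in 8.3% of all windows. The CArG pattern of serum response factor, known from smooth muscle genes, and TATAAA were in none of the 9 either, where 1.63% and 13.6% of windows held them. The matches in capitals do not overlap, and a missing match says only that these letters are not there. The table held no window for Cckar.

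The Gucy1a1 probe sets differed in how far they moved. The brightest, 1420533_at, read 198.3, 206.6, 163.3 and 228.6 in leptin pools, against 129.7, 158.5, 130.1 and 142.1 in saline pools. Leptin 7 came closest to the saline pools without overlapping them, and the log2 fold change of 0.48 ± 0.17 (SE) did not pass (limma adjusted p = 0.118). The second, 1434141_at, read 234.4, 218.0, 198.6 and 178.2 with leptin, against 74.6, 121.7, 103.3 and 74.7 with saline. It rose by 1.10 ± 0.21 (SE), 2.15-fold with a 95% interval of 1.57 to 2.94, and was called (limma adjusted p = 0.00825), where 6.93% of tested probe sets were called in either direction and 3.54% higher.

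The third Gucy1a1 probe set, 1420534_at, overlapped between treatments. It read 96.6, 92.5, 126.8 and 85.6 in leptin pools, against 39.6, 92.7, 99.1 and 33.5 in saline pools, with saline 1 and saline 4 under background, and was too dim to be tested. With the mean of all 3 probe sets as the gene's value, Gucy1a1 rose by 0.75 ± 0.20 (SE; limma adjusted p = 0.0412). With the actin ratio as a covariate the probe set 1434141_at was at 0.80 and was no longer called (limma adjusted p = 0.189).

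Gucy1b1, the beta subunit that binds the heme group which senses nitric oxide, had 2 tested probe sets, and neither passed. The brighter, 1420872_at, read 268.7, 265.9, 196.5 and 219.1 in leptin pools, against 130.6, 207.0, 202.1 and 205.5 in saline pools. Leptin 7 lay under 3 of the saline pools, and saline 1 stood well under the others. The log2 fold change was 0.35 ± 0.19 (SE), with a 95% interval of -0.061 to 0.76 (limma adjusted p = 0.291). The other, 1420871_at, read 242.2, 207.4, 199.1 and 237.7 with leptin, against 145.6, 162.6, 208.8 and 188.3 with saline, and was at 0.32 ± 0.17 (SE; limma adjusted p = 0.269). With the actin ratio as a covariate these values were 0.0048 ± 0.27 and 0.10 ± 0.25 (SE; limma adjusted p = 0.995 and 0.867).

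Taken by their brightest probe sets and with no filter on brightness, 7 of the 8 measured genes, Cckbr with its levels near background included, had a log2 fold change above 0, with a median of 0.43, where 58.1% of all 18193 genes did, with a median of 0.074. The pools did not overlap, higher with leptin, in 3 of the 8 and overlapped in 5. Over all genes, 13.2% did not overlap in either direction and 7.39% did not overlap and were higher. In that fit 1 of the 8 was called, Cckar, and of all genes 3.94% were called in either direction and 2.11% higher. The median signal of the arrays was itself higher in leptin pools. With median centring, in the fit with the filter, the brightest probe sets of Chrm3, Gucy1a1 and Gucy1b1 were at 0.42, 0.23 and 0.099. None of these was called (limma adjusted p = 0.355, 0.442 and 0.773). Relative to the smooth muscle score, Chrm3, Gucy1a1 and Gucy1b1 differed by 0.80, 0.61 and 0.48 (exact permutation p = 0.0571, 0.0571 and 0.114, adjusted p = 0.0762, 0.0762 and 0.114), and in each of the 3 the treatments overlapped.

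Kit and Ano1, defining genes of the interstitial cells of Cajal, which pace smooth muscle of the gut, were set beside the receptors and named after their values were seen. Kit rose by 0.82 ± 0.19 (SE; limma adjusted p = 0.025) and Ano1 was at 0.14 ± 0.18 and was not called (limma adjusted p = 0.679). The call of Kit was lost in 12 of 20 alternative fits (adjusted p from 0.00646 to 0.259). Kit is also a mast cell gene, and of 4 tested mast cell markers 2 rose and 2 did not pass. Their part in the receptor values was not tested.

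Other genes of the motility pathways were taken from 6 lists. Of the 95 tested, 4 were higher and 1 was lower, which is 5.26% called beside 8.27% of all tested genes, and their median log2 fold change was 0.097. None of 7 tested genes of the messengers and their synthesis, none of 19 other motility receptors and none of 13 genes of cGMP coupling was called. Of 20 genes of cAMP coupling 1 was higher, and so was 1 of 9 genes of receptor desensitisation.

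Among the messengers, the hormone gene Cck was read at 35.6, 33.6, 21.7 and 34.4 in leptin pools, against 2.6, 17.9, 59.5 and 25.4 in saline pools, under background in all but saline 3. Vip, the gene of the relaxing peptide, read 94.8, 115.6, 107.1 and 69.8 in leptin pools, against 146.8, 178.2, 148.0 and 73.5 in saline pools. The treatments overlapped through saline 4, and the log2 fold change of -0.42 ± 0.28 (SE) did not pass (limma adjusted p = 0.395). Nos3, the nitric oxide synthase of endothelium, read 129.1, 112.8, 115.6 and 164.5 with leptin, against 185.6, 194.2, 178.2 and 203.3 with saline. These did not overlap, and the log2 fold change was -0.53 ± 0.18 (SE; limma adjusted p = 0.096). With cyclic loess scaling or median centring Nos3 was called lower (adjusted p = 0.0489 and 0.0151).

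Downstream of the contracting receptors, Gnaq, the alpha subunit of Gq, was at 0.076 ± 0.16 (SE; limma adjusted p = 0.818). The 6 tested probe sets of Gnaq ran from -0.45 to 0.37, and none was called. Prkcb, a protein kinase C known from B cells and other leukocytes, averaged 258 with leptin and 108 with saline and rose by 1.19 ± 0.16 (SE; limma adjusted p = 0.000873). In the list of cAMP coupling, Adcy7, an adenylyl cyclase common in blood cells, averaged 523 with leptin and 190 with saline. It rose by 1.42 ± 0.18 (SE; limma adjusted p = 0.000603). Arrb1, an arrestin that ends receptor signalling, rose by 0.65 ± 0.18 although leptin 7 and saline 1 overlapped (SE; limma adjusted p = 0.0433). The 8 leukocyte markers moved with these genes, at 7115 to 7567 summed with leptin and 2010 to 2812 with saline, and their part was not tested.

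Rgs5, a regulator of G protein signalling known from pericytes and vascular muscle, rose by 0.52 ± 0.13 (SE; limma adjusted p = 0.0355), and 2 of its 4 tested probe sets were called. Atp2a2, the calcium pump of the sarcoplasmic reticulum, fell by 0.34 ± 0.094 (SE; limma adjusted p = 0.0468), and 1 of its 5 tested probe sets was called while the others reached 0.19. The calls of Rgs5, Arrb1 and Atp2a2 were lost in 12, 11 and 13 of 21 alternative fits each. On the relaxing side, Prkg1, the cGMP-dependent kinase, was at 0.066 ± 0.17, and Pde5a, which breaks down cGMP, at 0.32 ± 0.17 (SE; limma adjusted p = 0.854 and 0.266). The 3 tested probe sets of Pde5a ran from -0.051 to 0.88, and none was called.

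**Figure D4:**
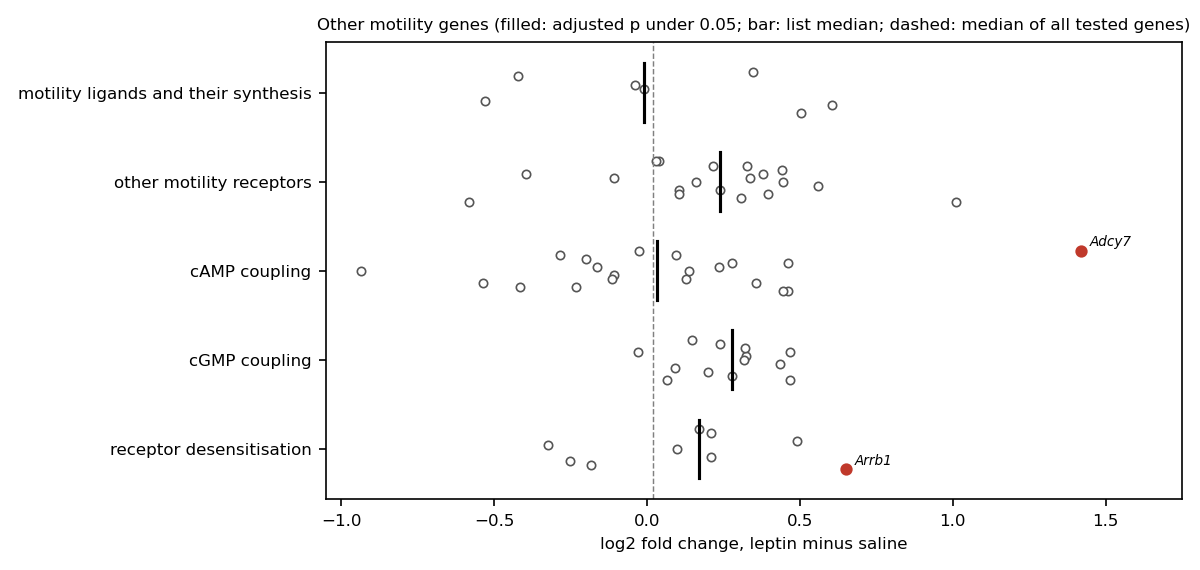
Log2 fold change, leptin minus saline (x axis), of each tested gene of 5 of the 6 motility lists, filled and named where called, with the median of each list as a bar and the median of all tested genes (0.020) as a dashed line. The called genes in these lists were Adcy7 (1.42) and Arrb1 (0.65).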

How the data were processed

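RNA of 8 gallbladder pools was read on 1-colour arrays. The authors deposited linear intensities (MAS 5.0 signals, 1 per probe set), and MAS5 is named per the submitters' processing notes. Each array had a 2% trimmed mean of 250.0, so a change shared by all transcripts would not be seen. With no scan date in these sources, no batch was tested.

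From these, log2(signal + 8.2) was computed, where 8.2 is the 10th percentile, which understates changes of dim genes. Leaving out 64 control probe sets, the 22519 probe sets at or above the median brightness were compared, leptin minus saline, with limma 3.58.1 in R 4.3.3 (lmFit, eBayes with a trend; two-sided; Benjamini-Hochberg threshold 0.05). Single values used exact permutation tests over 70 assignments. The test was tried on simulated data. Background was 46.0, the 95th percentile of 27 control probe sets for bacterial sequences. The number of arrays limits the precision.

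Names came from the array's annotation: 34958 probe sets with 1 symbol, 932 with several, 9211 with none listed, and 34754 were updated to the RefSeq table of GRCm38.p6. For each gene the brightest probe set that carried 1 symbol was used. The 9 receptor genes and the 19 lists (238 symbols, 163 tested) were chosen with earlier results of these data known. The separate count of 1 pathway list is not reported here. Named were all receptor probe sets, at most 4 called genes by size from each pathway list, 10 motility or muscle genes whatever they did, and the 3 genes most like Cckar. The marker genes Smtn, Kit, Ano1 and Ctrb1 fall outside this rule and were named after their values were seen. Other results of the marker lists were 1 of 6 tested endothelial genes higher, 0 of 6 fibroblast genes called, 0 of 2 glial genes called, 1 of 8 hepatocyte genes higher and 1 of 4 adipocyte genes lower. Alternatives changed the scaling, pseudocount, brightness filter, variance model, array weights, actin covariate, threshold, gene value, background bound, marker set and pools.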

Additional observations from a re-analysis of the deposited data

Results flagged for a closer look

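Among 80 sets of 4 pools, 3 had a pool whose gap to its nearest neighbour took up more of the whole range than the 95% critical value of Dixon's test allows, and chance gives about 1 in 20. The brightest Gucy1b1 probe set had saline 1 at a log2 value of 7.12, against 7.72 to 7.75 in the other saline pools (share of the range 0.947). Prkcb had saline 3 at 7.01, against 6.80 to 6.82 in the others (0.907). Acta2 had saline 1 at 13.55, against 13.88 to 13.93 in the others (0.862).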

How the results depend on the processing

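With genes read by their brightest probe set, the count of called receptors stayed at 1 in all 21 alternatives. Among these, the fit with no rescaling repeated the fit used here, with 1561 probe sets called, so it could not move the count. Cckar was called in each of its 22, with a log2 fold change of 0.68 to 1.01 (0.90 to 0.96 with 1 pool left out, limma adjusted p = 0.000709 to 0.00138). Chrm3 could not be tested without leptin 6 or leptin 8, where it was too dim. With the filter at the 75th percentile, Chrm3, Gucy1a1 and Gucy1b1 were all too dim to be tested. Their mean brightness stood at the 50.3rd, 66.3rd and 70.6th percentiles. Cckar was then the only receptor gene that could be called. With the mean of all probe sets as a gene's value, Gucy1a1 passed at 0.75 and Cckar passed at 0.93. The 1561 probe sets called became 3992 with median centring, 654 with the actin covariate, 507 at a threshold of 0.01, and 884 to 1431 with 1 pool left out (1028, 884 and 985 without leptin 5, 6 and 8, 892 and 943 without saline 2 and 4). The 5 pathway genes called became 15 with median centring, 2 with no filter, 2 with no trend, 2 with the actin covariate, 2 at a threshold of 0.01, and 2 to 6 with 1 pool left out (2 without leptin 5, leptin 6, saline 3 or saline 4, 3 without saline 2). Median centring moved the median log2 fold change of all probe sets to -0.21, against 0.039 in the fit used here. Relative to the smooth muscle score, leaving out 1 pool gave 1.00 to 1.13 for Cckar, 0.59 to 0.96 for Chrm3, 0.49 to 0.78 for Gucy1a1 and 0.40 to 0.65 for Gucy1b1. Without leptin 7 the last 3 were at 0.96, 0.78 and 0.65. Each had an exact permutation p = 0.0286, the smallest possible with 1 pool left out. Uncalled values changed sign for Prkg1 (quantile -0.0046, median centring -0.18, array weights -0.029, actin covariate -0.18, 1 pool left out -0.066 to 0.15), Gnaq (median centring -0.17, array weights -0.00078, 1 pool left out -0.053 to 0.16), Myh11 (quantile 0.026, loess 0.053) and Acta2 (loess 0.14), and, in fits added after seeing the data, Ano1 (median centring -0.11, 1 pool left out -0.0030 to 0.29) and Ctrb1 (actin covariate 0.31, 1 pool left out -0.32 to 0.0034). The cause was not tested. No paired analysis was possible because leptin and saline pools share no number. Signal over background limits Cckbr, Vipr1, Vipr2 and Tacr2.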
